A study of Mus musculus with 3 samples.

Results

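Toll-like and NOD-like receptors, with their adaptors and the IRAK kinases that act directly below them, were described in T cells of the mouse spleen. Members were taken by symbol: Tlr, Nlrc, Nlrp, Nlrx or Naip followed by a number, Nod1 and Nod2, symbols that begin with Myd88 or Ticam, and symbols that begin with Irak and a number from 1 to 4. A gene also needed a protein-coding transcript. The rule gave 47 genes out of 55536 gene entries, of which 21901 had a protein-coding transcript. A further 6 symbol matches had no protein-coding transcript and were left out. The rule itself uses no measured value, but it was chosen with earlier results of these data known.

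The study sequenced total RNA in 3 libraries that form 1 group, called replicates 1, 2 and 3 as in the labels. The cells were primary T cells, with CD3 in their label, from the spleen of adult virgin females of strain B6CASTF1/J at 66 days. This strain is a first-generation hybrid whose mother is C57BL/6 and whose father is CAST/EiJ. The labels name no treatment, and there was no second cell type, genotype or time point to compare with. The labels number the libraries as biological replicates 1, 2 and 3, each with technical replicate number 1. All 3 biosample records nevertheless belong to 1 donor record in the labels, so whether the libraries come from separate animals is not clear. Every SD and p-value below therefore covers the spread between these samples alone, and that spread may be technical. Each library was made from 300 ng of RNA with synthetic spike-in transcripts added.

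Toll-like receptors (TLRs) recognise microbial products at the cell surface, such as lipopeptides and lipopolysaccharide, or inside endosomes, such as nucleic acids. All but TLR3 signal through the adaptor MyD88 and the kinases IRAK4, IRAK1 and IRAK2 towards NF-kappaB, while TRIF (Ticam1) serves TLR3 and TLR4. NOD-like receptors are cytosolic: NOD1 and NOD2 detect fragments of peptidoglycan, NAIP proteins with NLRC4 detect bacterial flagellin and secretion systems, and several NLRP proteins nucleate inflammasomes that activate caspase-1. Others have different tasks, among them NLRC5, the transactivator of MHC class I genes that is well known from T cells, and NLRC3, which dampens signalling in T cells and myeloid cells.

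The T-cell label matched its markers. All 15 T-cell markers exceeded 10 TPM (a level scaled to transcript length and to sequencing depth), with a summed level of 3606, 3556 and 3333 TPM in replicates 1, 2 and 3. Trbc2, Trac and Trbc1, the constant regions of the T-cell receptor, were highest at 649.6 ± 43.3, 492 ± 16.4 and 423 ± 30.3 TPM, and Themis was lowest at 69.0 ± 1.02 TPM (mean ± SD, n = 3, as throughout). Markers of other spleen cells were present at low levels. The 14 B-cell markers summed to 21.3, 30.6 and 15.7 TPM, with 6 detected, the 17 monocyte and macrophage markers to 53.8, 44.0 and 52.0 TPM, with 8 detected, and the 12 dendritic-cell markers to 77.5, 69.2 and 60.6 TPM, with 5 detected. The 9 natural killer cell markers summed to 39.4, 30.2 and 34.9 TPM, with 7 detected, and the 10 neutrophil markers to 8.93, 7.74 and 8.29 TPM, with 2 detected. Gene counts totalled 16.88, 14.99 and 16.2 M per library, and each pair of libraries differed by more than sampling noise.

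Most of these receptors were low or not detected, and a few were abundant. In all 3 libraries, 16 of the 47 members reached 1 TPM, the level called detected here, beside 44.9% of all genes with a protein-coding transcript. A mean of at least 10 TPM was reached by 7 members, beside 27.2% of those genes. No read was assigned to 10 members in any library, beside 31.7% of those genes. The 7 abundant members were Nlrc5, Irak1, Nlrc3, Irak2, Tlr1, Myd88 and Nod1. All members together held 308 ± 19.0 TPM, of which Nlrc5 alone held 44.0%. Its part was smaller on protein-coding entries, where all members held 157 ± 7.97 TPM and Nlrc5 held 45.0 ± 3.75 TPM. Because the samples are bulk RNA, fewer cells with a transcript and less transcript per cell cannot be told apart at any of these levels.

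**Figure D1:**
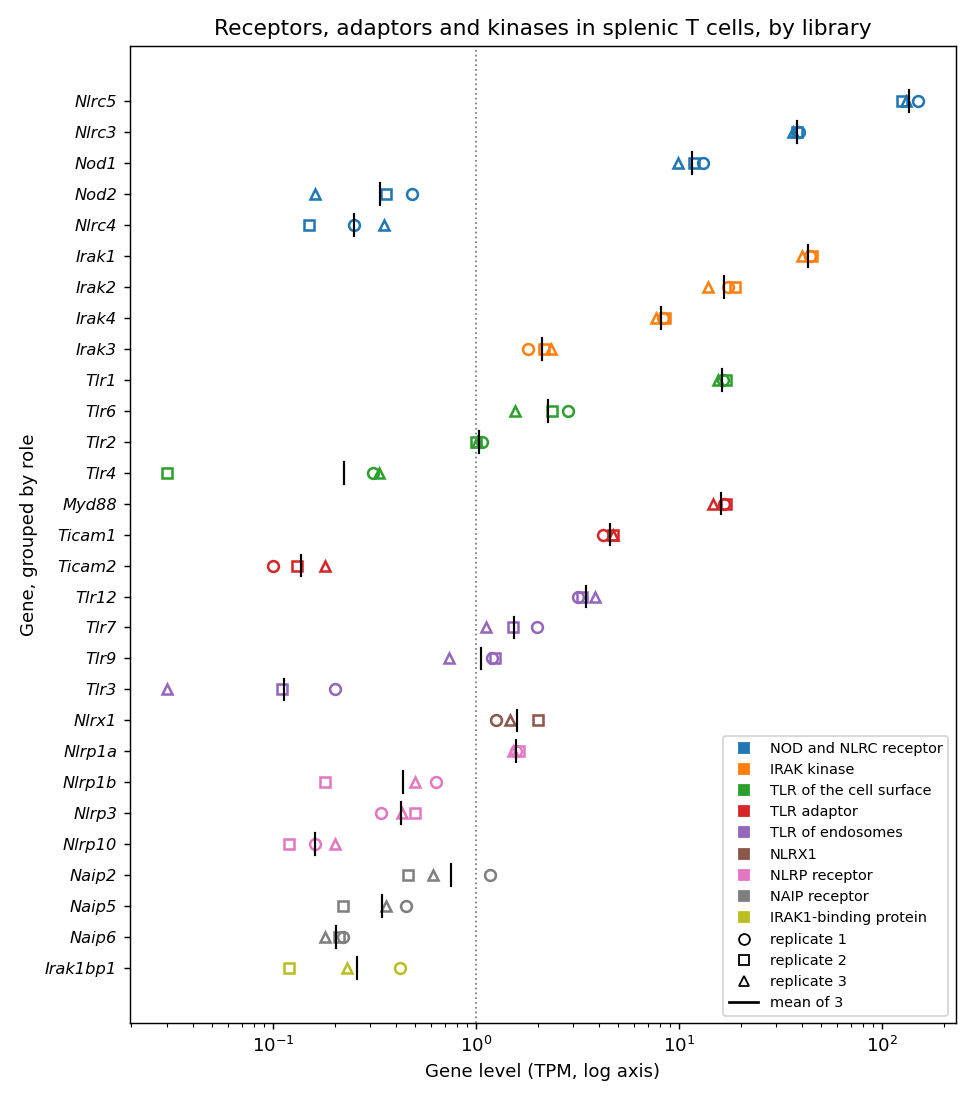
Level of each member with a mean of at least 0.1 TPM, by role (TPM on a log axis; circles, squares and triangles are replicates 1, 2 and 3, black bars are means, and the dotted line marks 1 TPM). Nlrc5 lay at 124.96 to 149.65 TPM, far above the other receptors, while the NAIP receptors and all NLRP receptors except Nlrp1a had means under 1 TPM.

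Among the NOD and NLRC receptors, 3 of 5 were detected, each above 10 TPM on average, and together the role held 185 ± 15.0 TPM, more than any other role. Nlrc5 (ENSMUSG00000074151.13, mm10 chromosome 8, 94434356 to 94527272, plus strand) measured 149.65, 124.96 and 131.19 TPM, a mean of 135 ± 12.8 TPM that lies at the 98.5th percentile of genes with a protein-coding transcript. Replicate 1 was highest and the other libraries were close to each other. Nlrc3 (ENSMUSG00000049871.14, chromosome 16, 3945007 to 3976632, minus strand) measured 39.0, 38.1 and 36.1 TPM, a mean of 37.7 ± 1.45 TPM. Its libraries nearly coincided, and Nlrc5 exceeded it 3.58 ± 0.285-fold. Nod1 (ENSMUSG00000038058.14, chromosome 6, 54923949 to 54972612, minus strand) measured 13.1, 11.8 and 9.87 TPM, a mean of 11.6 ± 1.60 TPM, highest in replicate 1 and lowest in replicate 3.

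The other peptidoglycan sensor, Nod2, was close to absent at 0.48, 0.36 and 0.16 TPM, from 55 reads in all. Nod1 exceeded Nod2 in each library, by 27.2-fold at the least and 61.7-fold at the most, and Nod2 rested on only 8 reads in replicate 3. On coding entries, where Nod2 had 0.137 ± 0.110 TPM, the ratio ran from 44.4 to 317. Nlrc4, the partner of the NAIP proteins, was the remaining member of the role at 0.25 ± 0.1 TPM.

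TLRs of the cell surface were led by Tlr1, which with TLR2 recognises triacylated lipopeptides. Tlr1 (ENSMUSG00000044827.10, chromosome 5, 64924679 to 64933563, minus strand) measured 16.3, 16.9 and 15.5 TPM, a mean of 16.3 ± 0.712 TPM with little spread between libraries. Its partner Tlr2 measured 1.07, 1.00 and 1.01 TPM from only 53, 45 and 50 reads, a mean of 1.03 ± 0.0379 TPM. Tlr2 only just reached the detection level in every library. Tlr1 therefore exceeded Tlr2 by 15.9 ± 0.946-fold on gene TPM. The ratio was 11.7 ± 0.329 on coding entries and 19.2 ± 1.55 in the second quantification, a separate count of the same reads. Tlr6, the other partner of TLR2 and the neighbour of Tlr1 on chromosome 5, measured 2.84, 2.35 and 1.55 TPM, a mean of 2.25 ± 0.651 TPM. Tlr1 exceeded it 7.65 ± 2.17-fold, with the ratio largest in replicate 3, where Tlr6 was lowest. This ratio was 5.68 ± 1.60 on coding entries and 9.04 ± 2.97 in the second quantification.

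The lipopolysaccharide receptor Tlr4 was not detected by the 1 TPM rule, at 0.31, 0.03 and 0.33 TPM from 19, 2 and 16 reads. The flagellin receptor Tlr5 had 1 read in each library. Cd14, the TLR4 co-receptor that is also a monocyte marker, stood at 0.323 ± 0.0764 TPM.

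Tlr1 and Tlr6 are close copies, and this bears on how reads were shared between them. Of all stretches of 101 bases in their transcripts, 7.80% of those of Tlr1 and 7.01% of those of Tlr6 also occur in another gene, 256 of them in each other. Their longest identical run is 229 bases of coding sequence. The pair of sequences shows where that run ends, with the first base that differs in capitals (mm10, GENCODE M21 transcripts, minus strand, 5′ to 3′), at chr5:64925517-64925576 in Tlr1 and chr5:64953808-64953867 in Tlr6.
Tlr1-202: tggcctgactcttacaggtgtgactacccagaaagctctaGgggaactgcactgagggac
Tlr6-201: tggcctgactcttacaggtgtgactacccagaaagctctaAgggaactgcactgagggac
The deposited posterior SD of the count, a measure of how uncertain the assignment of reads was, stood at 0.517% of the count for Tlr1 and 2.61% for Tlr6. Both are far smaller than the difference between the pair. The sequences compared are those of the reference genome, and CAST/EiJ alleles of Tlr1 and Tlr6 were not examined.

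TLRs of endosomes were low as a role, with 2 of 7 detected and a summed level of 6.38 ± 0.370 TPM. Tlr12, which detects profilin of apicomplexan parasites, was highest at 3.17, 3.33 and 3.86 TPM, a mean of 3.45 ± 0.361 TPM. Replicate 3 had the highest TPM of Tlr12 and also its lowest count, 152 against 166 and 158 reads. In that library alone, 27.7% of the TPM of the gene was given to a non-coding entry of 420 bases, and on the protein-coding entry the values were 3.17, 3.33 and 2.79 TPM. Tlr7, a sensor of single-stranded RNA, measured 1.99, 1.51 and 1.12 TPM, a mean of 1.54 ± 0.436 TPM. Its high value in replicate 1 likewise included a short non-coding entry, of 261 bases, and the protein-coding entries gave 1.26, 1.5 and 1.12 TPM.

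Tlr9, the receptor for unmethylated CpG DNA, measured 1.2, 1.23 and 0.73 TPM, a mean of 1.05 ± 0.280 TPM that missed the detection level only in replicate 3. The summed B-cell markers were also lowest in that library and highest in replicate 2, as the TPM of Tlr9 was. Replicates 1 and 2 of Tlr9 lay close, at 1.2 and 1.23 TPM, and its reads, 69, 64 and 42, were highest in replicate 1. Tlr7, on gene TPM, and the summed dendritic-cell markers were both highest in replicate 1 and lowest in replicate 3, whereas on coding entries Tlr7 was highest in replicate 2. The summed T-cell markers also fell in that order, at 3606, 3556 and 3333 TPM. Much of the dendritic-cell sum came from Ccr9, at 26.35, 26.42 and 25.27 TPM, and Bst2, at 27.15, 21.94 and 18.75 TPM, which T cells also use. Of all detected genes with a protein-coding transcript, 46.8% were lowest in replicate 3. B cells and dendritic cells are known for Tlr7 and Tlr9, and the part of such cells in the levels of both was not tested. Tlr3, the sensor of double-stranded RNA, was the next below 1 TPM at 0.20, 0.11 and 0.03 TPM from 16 reads in all. The other members of the role, Tlr8, Tlr11 and Tlr13, had means between 0.0333 and 0.0967 TPM.

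NAIP and NLRP receptors were nearly empty. None of 4 NAIP genes was detected, and together they held 1.30 ± 0.488 TPM. Naip2, which senses a part of bacterial secretion systems, was the highest of them at 1.17, 0.46 and 0.61 TPM. It exceeded 1 TPM in replicate 1 only, with 89.9 estimated reads there against 33.6 and 47.6. The NAIP genes share sequence: 15.9% of the stretches of 101 bases in Naip5, 12.7% in Naip1, 6.08% in Naip6 and 4.25% in Naip2 occur in another gene. In the reference sequence, single bases such as the capital one below separate reads of Naip5 and Naip6 at the end of their shared 229-base run. Alleles of the CAST/EiJ father were not examined. The end of the run is shown for both genes (mm10, minus strand, 5′ to 3′, chr13:100222141-100222200 and chr13:100299428-100299487).
Naip5-201: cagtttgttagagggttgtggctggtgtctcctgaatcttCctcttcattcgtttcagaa
Naip6-201: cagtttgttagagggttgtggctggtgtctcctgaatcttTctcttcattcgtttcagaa
The level of Naip1 is uncertain, with a posterior SD of 64.9% of the 2.28 estimated reads it had in all. The posterior SD stayed at 2.53% for Naip5, 4.06% for Naip6 and 0.988% for Naip2.

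Of the 17 NLRP genes, 1 was detected and 10 had no read. Nlrp1a, an inflammasome sensor related to the target of anthrax lethal factor, measured 1.57, 1.62 and 1.51 TPM, a mean of 1.57 ± 0.0551 TPM and the smallest relative spread of the detected members, 3.52%. Nlrp1a had only 98, 91.7 and 94.5 reads, so this small spread does not show how precisely its level is known. Its neighbour Nlrp1b was lower in every library, at 0.63, 0.18 and 0.50 TPM, and the ratio of the pair, 4.84 ± 3.61, rested on the 11.3 reads of Nlrp1b in replicate 2. Nlrp3, the best known inflammasome sensor of myeloid cells, stood at 0.423 ± 0.0802 TPM from 57 reads; it lies outside the rule for named genes and is given because the inflammasome partners below are read beside it. The 10 genes without a read were Nlrp2, Nlrp4a, Nlrp4b, Nlrp4c, Nlrp4e, Nlrp5, Nlrp9a, Nlrp9b, Nlrp9c and Nlrp14, several of which are known from oocytes and the germ line. A count of 0 allows up to 3 reads, which for these genes is a level of 0.0552 to 0.135 TPM. The second quantification gave 7 of them 0 too, but Nlrp9c 0.107, 0.108 and 0.0342 TPM, Nlrp5 0.121 TPM in replicate 3 and Nlrp4a 0.0323 TPM in replicate 2. Nlrp9c exceeded its floor in replicates 1 and 2, and Nlrp5 exceeded its floor in replicate 3. The mitochondrial Nlrx1, which tunes antiviral signalling, measured 1.25, 2.02 and 1.47 TPM, a mean of 1.58 ± 0.397 TPM.

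The adaptors followed the same pattern of abundant and near-absent members. Myd88 (ENSMUSG00000032508.8, chromosome 9, 119335934 to 119341411, minus strand) measured 16.6, 16.9 and 14.6 TPM, a mean of 16.0 ± 1.26 TPM. Ticam1, which encodes TRIF, measured 4.18, 4.73 and 4.71 TPM, a mean of 4.54 ± 0.312 TPM, so that Myd88 exceeded it 3.54 ± 0.436-fold. Ticam2, the bridge between TLR4 and TRIF, stood at 0.10, 0.13 and 0.18 TPM in the gene table. It overlaps Tmed7 on the same strand over 14299 bases, and Tmed7 had 22.8 TPM. The second quantification, a separate count of the same reads, gave Ticam2 1.17 ± 0.597 TPM, 8.55 times as much, and its level is uncertain for that reason.

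All 4 IRAK kinases were detected, and the role held 69.9 ± 5.50 TPM. Irak1 (ENSMUSG00000031392.18, chromosome X, 74013914 to 74023918, minus strand), the signalling kinase recruited after IRAK4, measured 43.88, 45.04 and 40.01 TPM, a mean of 43.0 ± 2.63 TPM, and was the second highest of all members. Irak2, which sustains the signal, measured 17.4, 18.9 and 13.8 TPM, a mean of 16.7 ± 2.61 TPM. Irak4 (ENSMUSG00000059883.16, chromosome 15, 94543643 to 94581815, plus strand), the kinase that starts the cascade, measured 8.26, 8.49 and 7.69 TPM, a mean of 8.15 ± 0.412 TPM. The ratio of Irak1 to Irak4 was 5.27 ± 0.0612 on gene TPM, 3.68 ± 0.450 on coding entries and 5.91 ± 0.452 in the second quantification. Irak3, the inhibitory member also called IRAK-M, was lowest at 1.80, 2.16 and 2.34 TPM, a mean of 2.10 ± 0.275 TPM. Its reads were 85, 75 and 60 and its coding entries gave 1.49, 1.33 and 0.73 TPM, so that on those it was highest in replicate 1 and not detected in replicate 3. Irak1bp1, an IRAK1-binding protein that entered only through its symbol, stood at 0.257 ± 0.152 TPM.

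In the order of the levels, Nlrc5, Irak1, Nlrc3 and the next group were each separated without overlap of their libraries. Irak2, Tlr1 and Myd88, at 16.7, 16.3 and 16.0 TPM, overlapped from one to the next and cannot be ordered. Nod1, Irak4, Ticam1 and Tlr12 then followed without overlap between neighbours. From Tlr6 downwards, over Irak3, Nlrx1, Nlrp1a, Tlr7, Tlr9 and Tlr2, every neighbour overlapped the next. The median level of a role on the log2(TPM + 1) scale was 3.66 ± 0.14 for IRAK kinases, 3.64 ± 0.19 for NOD and NLRC receptors, 2.47 ± 0.08 for adaptors, 1.02 ± 0.03 for surface TLRs, 0.34 ± 0.07 for NAIP receptors and 0.21 ± 0.06 for endosomal TLRs, and it was 0 for NLRP receptors.

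How much of each level stood for coding transcripts differed strongly between members. Total RNA holds unspliced and non-coding transcripts, and the annotation lists such entries beside the coding ones. Of the TPM of Nlrc5, 33.0%, 34.0% and 33.0% fell on protein-coding entries, of that of Irak2 39.6%, 31.0% and 43.1%, and of that of Irak1 39.9%, 44.9% and 43.9%. These 3 members lay below 50% on average. The share was 62.0 ± 8.03% for Irak4, 66.3 ± 0.886% for Nlrc3, 74.2 ± 2.49% for Tlr1, 83.7 ± 1.56% for Myd88 and 92.2 ± 5.72% for Nod1, it ranged from 31.3% to 82.3% over the libraries for Irak3, and it was 100% for Ticam1, Tlr2, Tlr6, Tlr9 and Nlrp1a. Of the 12 members with a mean of at least 1 TPM and a non-coding entry, 25.0% lay below 50%, near the 26.6% of 8095 detected genes with such an entry.

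**Figure D2:**
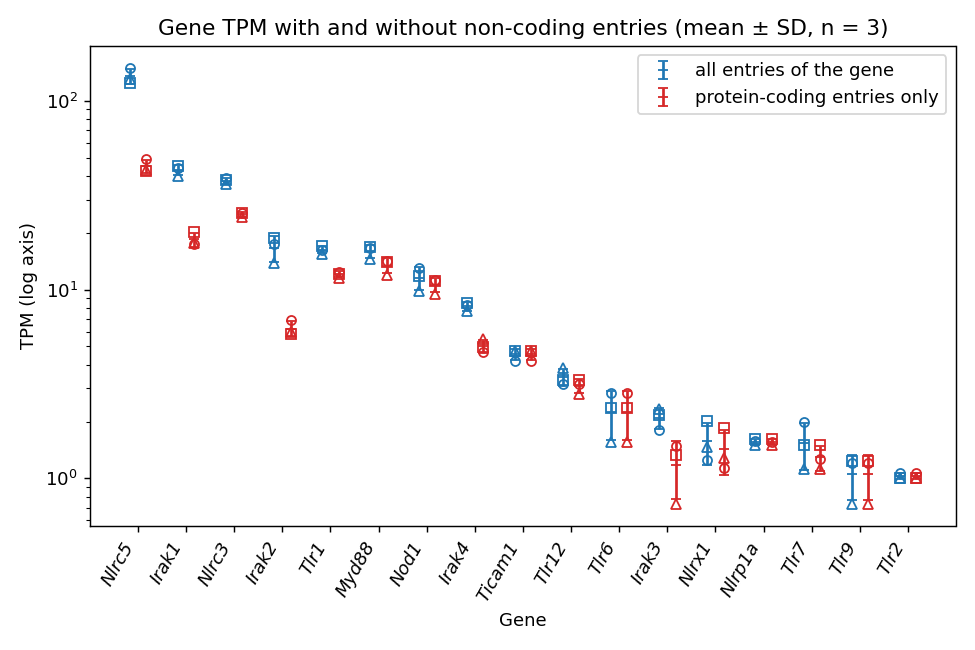
TPM of the 17 members with a mean of at least 1 TPM, over all entries of the gene (blue) and over protein-coding entries only (red), on a log axis (circles, squares and triangles are replicates 1, 2 and 3; bars are mean ± SD, n = 3). Nlrc5 falls from 135 to 45.0 TPM and Irak1 from 43.0 to 18.4 TPM, below Nlrc3 at 25.0 TPM, while Ticam1, Tlr6, Nlrp1a, Tlr9 and Tlr2 stay in place.

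Restricted to protein-coding entries, Nlrc5 was still highest at 45.0 ± 3.75 TPM, but 1.80 ± 0.135 times Nlrc3 rather than 3.58. Nlrc3, at 25.0 ± 0.745 TPM, then exceeded Irak1, at 18.4 ± 1.57 TPM, in every library. The ratio of Nlrc3 to Irak1 was 0.879 ± 0.0292 on gene TPM, 1.36 ± 0.0990 on coding entries and 0.774 ± 0.0418 in the second quantification, so that the order of the pair turned with the choice of entries. Irak2 moved to 6.22 ± 0.565 TPM. It stood level with Myd88 on gene TPM, at a ratio of 1.04 ± 0.0854, and below it at 0.465 ± 0.0433 on coding entries. On gene TPM it exceeded Nod1 1.44 ± 0.143-fold, and on coding entries the ratio was 0.588 ± 0.0533.

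Reads gave a different picture from TPM, because a short entry turns a few reads into a high TPM. Of the reads of Nlrc5, 80.1 ± 0.476% were assigned to protein-coding entries, against 33.3 ± 0.605% of its TPM. For Irak1 the share of reads was 77.7 ± 1.18% and for Irak2 73.4 ± 3.20%. The entry of Nlrc5 with the highest mean TPM, Nlrc5-208, is a non-coding transcript of 557 bases that held 22.7 ± 4.08% of the TPM with 3.97 ± 0.787% of the reads. The coding Nlrc5-207, of 7578 bases, held 20.5 ± 1.85% of the TPM with 58.3 ± 3.61% of the reads. In the second quantification Nlrc5-208 had 9.998 ± 2.45% and Nlrc5-207 had 38.2 ± 2.59% of the TPM, so the leading entry by mean changed between the deposited tables. In replicate 2 of the first table Nlrc5-207 already led, with 21.9% against 18.5% for Nlrc5-208. For Nlrc3 and Myd88 the scales gave similar shares, with 66.3% of the TPM and 67.1 ± 1.52% of the reads of Nlrc3, and 83.7% of the TPM and 80.0 ± 1.43% of the reads of Myd88, on coding entries.

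**Figure D3:**
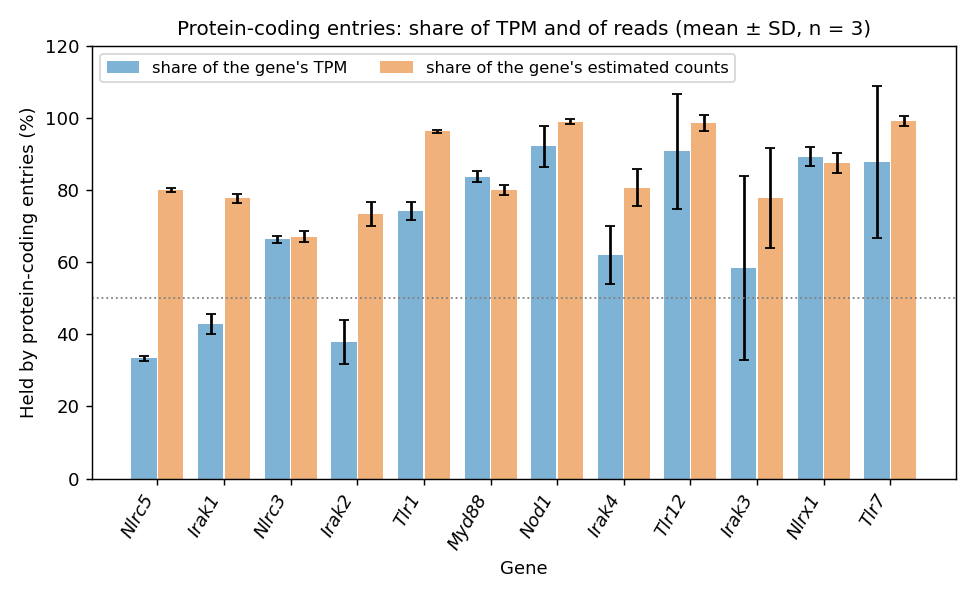
Share of the TPM (blue) and of the estimated reads (orange) of each gene that lay on protein-coding entries, in percent, for the 12 members with a mean of at least 1 TPM and a non-coding entry (bars are means, error bars SD, n = 3, and can pass 100%; the dotted line marks 50%). Nlrc5, Irak1 and Irak2 lie below 50% by TPM and at 73.4% to 80.1% by reads, whereas Nlrc3 is at about the same share by both.

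Entries annotated as retained intron made up most of the non-coding level of the kinases. They held 55.6 ± 4.31% of the TPM of Irak1, 40.1 ± 7.26% of that of Irak2, 37.96 ± 8.03% of that of Irak4, 33.7 ± 0.886% of that of Nlrc3, 28.0 ± 1.59% of that of Nlrc5 and 16.3 ± 1.56% of that of Myd88. The annotated class says little of how much intron an entry holds. Of the 1727 bases of Nlrc5-203, which held 17.3 ± 1.87% of the TPM of its gene, 2 lie outside the exons of coding Nlrc5 entries. Of the 735 bases of Nlrc5-206, 277 do, and this entry held 10.7 ± 0.305% of the TPM. For Irak4-203 it is 262 of 1159 bases, and for Irak1-215, the leading non-coding entry of Irak1 with 21.2 ± 4.09% of the TPM, 91 of 644 bases. Reads from the shared exons can be assigned to either kind of entry, and no measurement here separates them.

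The bases that tell such an entry from the spliced transcript are those that run across an exon end into the intron. The stretches below show 30 bases of coding exon in lower case and the first 30 bases of the intron in capitals, from GENCODE M21 transcripts on mm10, 5′ to 3′ on the strand of the gene. They lie at chr8:94523203-94523262 for Nlrc5-206, chrX:74022443-74022502 for Irak1-215, chr6:113665817-113665876 for Irak2-208, chr15:94556662-94556721 for Irak4-203, chr16:3948874-3948933 for Nlrc3-201 and chr9:119338546-119338605 for Myd88-203.
Nlrc5-206: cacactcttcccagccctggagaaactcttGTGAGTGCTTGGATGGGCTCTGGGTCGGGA
Irak1-215: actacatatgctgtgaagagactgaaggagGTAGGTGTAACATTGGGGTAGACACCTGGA
Irak2-208: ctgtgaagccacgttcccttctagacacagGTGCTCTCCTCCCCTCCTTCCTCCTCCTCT
Irak4-203: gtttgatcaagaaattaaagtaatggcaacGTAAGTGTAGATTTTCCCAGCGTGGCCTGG
Nlrc3-201: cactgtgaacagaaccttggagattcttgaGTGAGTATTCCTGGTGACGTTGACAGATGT
Myd88-203: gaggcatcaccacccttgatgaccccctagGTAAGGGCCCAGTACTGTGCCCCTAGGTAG
Introns are those of 1 coding entry of each gene, Nlrc5-207, Irak1-206, Irak2-201, Irak4-201, Nlrc3-204 and Myd88-201. Each of the 6 begins with the letters GT, the usual start of an intron. The entry continues into the intron shown for 277 bases in Nlrc5-206, 223 in Irak1-215 (where other coding entries have exon over part of them), 163 in Irak2-208, 262 in Irak4-203 and 389 in Myd88-203. In Nlrc3-201, which held 29.4 ± 1.87% of the TPM of Nlrc3 and is 4351 bases long, the entry ends after 34 bases of that intron, and 1046 of its bases lie outside the exons of coding Nlrc3 entries.

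Coding transcripts of the other members were mostly 1 main form in the first transcript table. Irak4-201 held 61.4 ± 8.09% of the TPM of Irak4 and Myd88-201 held 82.1 ± 1.4% of that of Myd88. Tlr1-202 held 60.04 ± 8.43% of the TPM of Tlr1, while Tlr1-203, a non-coding entry of 419 bases, held 25.8 ± 2.49% of the TPM with 3.72 ± 0.489% of the reads. Nlrx1, Irak3 and Tlr7 had no stable main form. Irak3-201 held 82.3%, 61.6% and 27.9% of the TPM of Irak3, and Tlr7-201 held 63.3%, 31.3% and 100% of that of Tlr7. Nlrx1-203 held 76.2%, 65.0% and 25.7% of the TPM of Nlrx1, and the second quantification placed 57.2 ± 13.3% on Nlrx1-202. Nlrx1-203 and Nlrx1-202 are protein-coding entries of similar length, 3621 and 3579 bases, and with 227 reads in all the split of this gene was not resolved. The leading entry was the same in both quantifications for 11 of the 14 members with a mean of at least 1 TPM and several entries, the exceptions being Nlrc5, Irak1 and Nlrx1. The shares agreed less well, and 8 of the 14 leading shares moved by more than their SD. In the second quantification Tlr1-202 held 44.9 ± 4.80% against 42.4 ± 6.47% for Tlr1-203, and Nod1-201 held 50.2 ± 9.84%. Tlr7-201 held 44.0 ± 51.1% there against 36.9 ± 34.3% for Tlr7-202.

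Neighbouring genes overlap several members, which matters where reads of both strands could be mixed. The span of Irak4 shares 3865 bases with Twf1 on the opposite strand, at 17.1 TPM, and that of Myd88 shares 1736 bases with Acaa1a on the opposite strand, at 19.2 TPM. Irak3 overlaps Tmbim4 on the opposite strand over 541 bases, at 10.1 TPM, which is above Irak3 itself. The library kit keeps the strand, and whether the counting used it is not given in the sources used here. These neighbours are named for their position and lie outside the rule for named genes.

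No member passed the test for a larger spread between the libraries than genes of like abundance have. The edgeR test of each gene's residual dispersion against the trend called 75 of 13280 genes, or 0.565%, at a Benjamini-Hochberg adjusted p of 0.05, and 0 of the 23 members tested. Before adjustment, 755 genes, or 5.69%, and 2 members lay under 0.05. The members were Nlrp1b, with an adjusted p of 0.72 in edgeR, and Naip2, with an adjusted p of 0.794 in edgeR. Both were lowest in replicate 2. Nod1 came next with an adjusted p of 0.964 in edgeR. DESeq2 marked 125 genes, or 0.941%, as outlying in dispersion and also none of the 23 members.

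The detected members had a median coefficient of variation of 8.70%, ranging from 3.52% for Nlrp1a to 29.0% for Tlr6, beside a median of 8.58% over all detected genes with a protein-coding transcript. Of the 16 detected members, 10 were lowest in replicate 3, 4 in replicate 1 and 2 in replicate 2, beside 46.8%, 19.0% and 34.2% of the detected genes. Replicate 3 was the most frequent lowest library in both sets.

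The partners of the receptors were mostly well expressed. Of 78 genes in 6 lists of the pathway, 63 were detected, or 80.8%, beside 44.9% of all genes with a protein-coding transcript. On average 45 exceeded 10 TPM, beside 27.2% of those genes, and 38 did on coding entries. None of the 71 tested had an adjusted p under 0.05 in the edgeR test of spread, with 7 under 0.05 before adjustment. The nearest was Txnip, at an adjusted p of 0.0565 in edgeR. Over the alternatives its adjusted p in edgeR ranged from 5.82e-06 without a filter on low counts to 0.827 without replicate 3. It passed without replicate 2 (adjusted p = 0.00808 in edgeR), with a minimum mean count of 100 (adjusted p = 0.0407) and in the second quantification (adjusted p = 0.0436). It did not pass with DESeq2 size factors (adjusted p = 0.055), posterior mean counts (adjusted p = 0.0737), a non-robust trend (adjusted p = 0.22) or without replicate 1 (adjusted p = 0.395). Without a filter on low counts Cd180, Aim2 and Tnfaip3 passed as well, with adjusted p = 0.00299, 0.00541 and 0.0145 in edgeR, and no other alternative called them.

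All 15 kinases and transcription factors below the receptors were detected, 12 of them above 10 TPM. Ikbke, which encodes IKK-epsilon, was highest at 113 ± 1.98 TPM, followed by Ikbkb, the IKK-beta subunit that releases NF-kappaB, at 104 ± 8.39 TPM and Nfkb1, the p105 subunit, at 64.2 ± 2.54 TPM. On coding entries these had 56.98, 35.5 and 29.7 TPM. Irf5, a factor used by MyD88 signalling in myeloid and B cells, was lowest at 1.64 ± 0.460 TPM. The inhibitors were detected in 11 of 12 cases. Tnfaip3, the A20 ubiquitin-editing enzyme, measured 429, 380 and 328 TPM, a mean of 379 ± 50.3 TPM, or 249 TPM on coding entries, above every receptor and adaptor described here. Nfkbia, the inhibitor of NF-kappaB, and Tnip1, the partner of A20, followed at 76.3 ± 5.89 and 52.2 ± 6.26 TPM, and Il1rl1 was lowest at 0.63 ± 0.295 TPM.

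Of 17 downstream adaptors and ubiquitin ligases, 13 were detected. Peli1, a ligase that acts on IRAK1, stood at 89.6 ± 0.488 TPM, and Rbck1 and Sharpin, subunits of the linear ubiquitin ligase, at 86.3 ± 3.89 and 68.1 ± 0.194 TPM. On coding entries Peli1 had 50.9, Rbck1 33.2 and Sharpin 1.04 TPM. Tifa was lowest at 0.473 ± 0.127 TPM. Of the 15 inflammasome partners and products, 11 were detected, led by Txnip at 209 ± 28.6 TPM, Gsdmd, the pore-forming gasdermin D, at 46.9 ± 3.02 TPM and Casp8 at 37.7 ± 1.58 TPM. On coding entries Gsdmd had 14.2 TPM and Casp8 still 37.7 TPM. Il1a was lowest, with 3 reads in all. The sensor Nlrp3 itself was at 0.423 TPM.

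Accessory proteins of TLRs were the least complete list, with 4 of 10 detected. Hsp90b1 and Cnpy3, the chaperones that fold TLRs, stood at 109 ± 8.25 and 18.4 ± 0.609 TPM, and Unc93b1, which carries nucleic-acid-sensing TLRs to endosomes, at 5.20 ± 0.848 TPM. On coding entries these had 79.3, 10.4 and 3.26 TPM. Cd36 was lowest at 0.233 ± 0.0252 TPM. Other nucleic acid sensors were all detected, 9 of 9 matched symbols of 11 listed. Tmem173, which encodes STING, was highest at 54.3 ± 2.97 TPM, ahead of Ddx58 (RIG-I) at 35.9 ± 1.61 TPM and Zbp1 at 32.0 ± 3.56 TPM, and Cgas was lowest at 1.42 ± 0.225 TPM. On coding entries the order was another, with Zbp1 at 28.1, Tmem173 at 18.0 and Ddx58 at 13.8 TPM. Every endosomal TLR lay below 10 TPM, whereas 4 of these 9 cytosolic sensors and their partners lay above it.

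**Figure D4:**
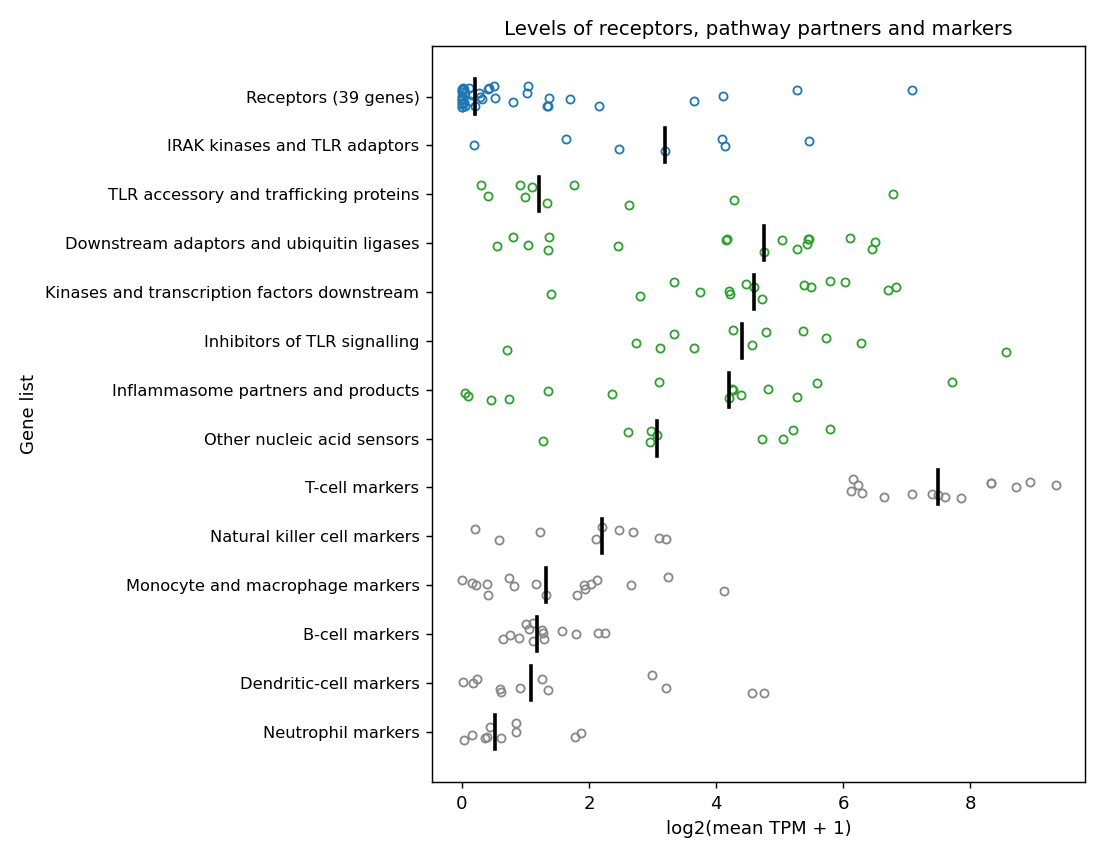
Level of each gene as log2(mean TPM + 1) for the receptors, the IRAK kinases with the adaptors, the 6 pathway lists and the marker lists of cell types (points are genes, black bars are medians; vertical jitter only separates points). The receptors crowd near 0 with a few high members, whereas most genes of the 5 pathway lists other than the accessory proteins lie above 2, and the T-cell markers lie above all other marker lists.

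Markers of other cells gave the levels against which the low receptors can be read. Among B-cell markers Cd79b, Cd22 and Cd79a were highest at 3.79 ± 0.208, 3.44 ± 0.833 and 2.49 ± 1.13 TPM, and Fcer2a was lowest at 0.567 ± 0.368 TPM. Among monocyte and macrophage markers Lyz2, Cebpb and Cd68 were highest at 16.4 ± 1.37, 8.44 ± 0.612 and 5.34 ± 0.548 TPM, and Ms4a7 was at 0. Dendritic-cell markers were led by Ccr9, Bst2 and Irf8 at 26.0 ± 0.645, 22.6 ± 4.24 and 8.23 ± 1.95 TPM, genes that T cells also use, and Xcr1 was lowest at 0.0167 ± 0.0115 TPM. Neutrophil markers were led by S100a8, S100a9 and Retnlg at 2.66 ± 0.431, 2.42 ± 0.342 and 0.813 ± 0.224 TPM, with Ly6g at 0.0233 ± 0.0404 TPM. Natural killer cell markers were led by Tyrobp, Eomes and Klrk1 at 8.26 ± 1.60, 7.63 ± 0.827 and 5.48 ± 1.36 TPM, with Klra4 at 0.153 ± 0.186 TPM. On gene TPM, Nlrc5, Irak1 and Nlrc3, from 36.1 TPM upwards in every library, lay above every marker of another cell type listed. All other members lay within the range of those markers or below it, Irak2, Tlr1 and Myd88 included, and the part of other cells in their levels was not tested. The top of that range is set by Ccr9 and Bst2, which T cells also use. The next marker was Lyz2 at 16.4 TPM, beside Irak2 at 16.7, Tlr1 at 16.3 and Myd88 at 16.0 TPM. On coding entries Irak1, at 17.5 to 20.2 TPM, also lay within that range, below Bst2 at 22.6 and Ccr9 at 20.7 TPM, and Nlrc3, at 25.44 TPM in replicate 1, lay below the 27.15 TPM of Bst2 there.

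The second quantification gave most members a higher level, with a median ratio to the gene table of 1.23 over detected members, from 0.885 for Nlrc5 to 1.65 for Irak3, beside 1.31 over all detected genes with a protein-coding transcript. Some members below 1 TPM moved more, among them Nlrc4 at 2.82, Irak1bp1 at 2.49, Tlr4 at 2.47, Naip5 at 1.87 and Nlrp3 at 1.68 times the gene table. Others stayed within the range of the detected members, such as Naip2 at 1.36, Nlrp1b at 1.28 and Nod2 at 1.15 times. The second quantification detected 16 members as well, beside 47.9% of all genes with a protein-coding transcript. Coding entries alone gave 15, without Irak3, beside 42.4% of those genes. In the second quantification Nlrc5 at 120 ± 13.3, Irak1 at 60.8 ± 6.47 and Nlrc3 at 46.9 ± 3.05 TPM stayed in the same order. Tlr1, at 22.9 ± 1.45 TPM, then lay above Myd88, at 20.6 ± 1.97 TPM, and Irak2, at 19.7 ± 1.46 TPM. The libraries of Tlr1 and Myd88 barely separated, with 22.10 TPM the lowest for Tlr1 and 22.08 TPM the highest for Myd88. In that quantification the non-coding Tlr1-203 held 42.4 ± 6.47% of the TPM of Tlr1, and the coding Myd88-201 held 75.5 ± 3.98% of that of Myd88. On coding entries of the first transcript table, Myd88 had the higher mean, 13.4 ± 1.22 against 12.1 ± 0.438 TPM, with overlapping libraries.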

How the data were processed

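Each library had a gene table, a transcript table and a second transcript table. Per the file headers, the first 2 hold TPM, FPKM and estimated counts, made from transcriptome alignments to mm10 with GENCODE M21 per the README deposited with each sample. The second transcript table, called the second quantification, holds TPM and estimated counts as deposited, made without those alignments from an index of that annotation, per its README. For the aligner and quantifiers, names were not given in the sources used here. Entries that are not genes (spike-ins and others) held 0.309% to 0.318% of counts and were left out. All 55536 genes matched the annotation.

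The members, roles, lists and tests were chosen with earlier results of these data known. Levels are deposited TPM. A gene was detected at 1 TPM in all 3 libraries. Role levels are medians of log2(TPM + 1). Coding shares and leading entries come from the transcript tables, and reads in the text are estimated counts. Counts were rounded, filtered with filterByExpr, scaled with TMM and fitted with an intercept only in edgeR, where each gene's quasi-likelihood dispersion was tested against the robust trend with Benjamini-Hochberg adjustment at 0.05 over all genes tested. With 1 group there is no contrast. Stretches of 101 bases, the fragment length implied by the deposited lengths and effective lengths, were compared between all GENCODE M21 transcripts, from which all sequences were read. A chi-square over genes with at least 20 summed counts compared the libraries by pairs (4.2 to 5.25 per degree of freedom). PCR copies are not independent molecules, so the floor of 3 counts covers counting error only.

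Named genes are the members with a mean of 1 TPM or more, the next below in each role, the 3 highest and the lowest of each list, and any member or pathway gene with an adjusted p under 0.05. Other names were added after values were seen. Alternatives were other thresholds, FPKM, posterior means, the second quantification, coding entries, a pseudocount of 0.1, filters, DESeq2, a non-robust trend and each replicate left out. Software was R 4.3.3, edgeR 4.0.16, limma 3.58.1, DESeq2 1.42.0, Python 3.11.15, pandas 2.3.3 and numpy 2.4.6. Symbols of 2 listed sensors had no match and were left out.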

Additional observations from a re-analysis of the deposited data

How the results depend on the processing

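The number of detected members stayed at 15 to 17 with a threshold of 0.5 TPM, FPKM, posterior means, the second quantification, coding entries and each replicate left out. Of all genes with a protein-coding transcript, 42.4% (coding entries) to 48.4% (posterior means) were detected under these settings. At 2 TPM the number fell to 10 members, beside 41.3% of those genes. No member was called for spread under any alternative. Role medians of log2(TPM + 1) moved by more than their SD as follows. A pseudocount of 0.1 gave 0.17 for surface TLRs, -1.96 for endosomal TLRs, 2.21 for adaptors, -1.47 for NAIP and -3.32 for NLRP receptors, which follows from the logarithm of low values. Members with a mean of at least 0.1 TPM gave 1.35, 1.18, 0.42 and 0.51 for surface TLRs, endosomal TLRs, NAIP and NLRP receptors, since fewer genes enter. The second quantification gave 3.93 for IRAK kinases, 4.08 for NOD and NLRC receptors, 2.61 for adaptors, 1.13 for surface TLRs and 0.51 for NAIP receptors, and coding entries 2.72 for IRAK kinases. No role median moved by more than its SD without replicate 1, 2 or 3. Of 17 named levels, 13 moved by more than their SD in the second quantification (14 higher, 3 lower), 8 on coding entries (14 lower, 0 higher), 1 with posterior means and 0 with FPKM, and of 14 leading shares 8 moved in the second quantification. No paired analysis was possible because there is only 1 group. Depth limits the members below 1 TPM: 20 of these 30 had any read, and 6 members had only 1 to 9.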
